A study of Mus musculus with 4 samples.

Results

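The transcripts of 10 genes of the interleukin-1 (IL-1) family and of the inflammasome were followed in mouse peritoneal macrophages. The genes were Il1a, Il1b, Il1rn, Il1r2, Il1rap, Il18, Il18bp, Nlrp3, Casp1 and Casp4. They were chosen by symbol, and each matched 1 of the 54532 genes of the deposited count table. RNA was sequenced from 4 cultures of WT macrophages, harvested per the study's methods from BALB/c mice injected with thioglycollate broth. One culture was kept in normal medium with DMSO, the vehicle (label 0% 4T1), and 1 in normal medium with 10 µM CH223191, an antagonist of the aryl hydrocarbon receptor (AHR). The other 2 were given 30% 4T1-CM, which is medium taken from cultures of the mouse mammary carcinoma line 4T1, with either DMSO or 10 µM CH223191. Per the methods, the wild-type mice of the study were young adults. Each condition has 1 library, the number of mice behind a culture and the time in culture are not given in the sources used here, and the spread between cultures is unknown.

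The IL-1 family is a group of cytokines through which macrophages start and amplify inflammation. IL-1α and IL-1β bind the same receptor, which signals only with its accessory protein (Il1rap), while the receptor antagonist (Il1rn) occupies that receptor without signalling and the decoy receptor (Il1r2) captures the ligands. IL-18 is held back by its binding protein (Il18bp). IL-1β and IL-18 are made as precursors that caspase-1 cuts once an inflammasome, such as that of the sensor NLRP3, has assembled, and caspase-4 (also called caspase-11 in the mouse) responds to lipopolysaccharide in the cytosol. Cleavage and release happen after transcription, so read counts show the level of the transcripts and not that of the active cytokines.

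Positions are those of the count table, which equal the GENCODE M21 annotation of GRCm38. Of the ligands, the table places Il1a (ENSMUSG00000027399) at chr2:129299610-129309972 on the minus strand, Il1b (ENSMUSG00000027398) at chr2:129364570-129371139 on the minus strand and Il18 (ENSMUSG00000039217) at chr9:50554827-50581840 on the plus strand. The inhibitors and the receptor subunit are Il1rn (ENSMUSG00000026981) at chr2:24336853-24351494 on the plus strand, Il1r2 (ENSMUSG00000026073) at chr1:40074079-40125231 on the plus strand, Il18bp (ENSMUSG00000070427) at chr7:102014885-102018690 on the minus strand and Il1rap (ENSMUSG00000022514) at chr16:26581704-26730117 on the plus strand. The inflammasome genes are Nlrp3 (ENSMUSG00000032691) at chr11:59541568-59566956 on the plus strand, Casp1 (ENSMUSG00000025888) at chr9:5298517-5307265 on the plus strand and Casp4 (ENSMUSG00000033538) at chr9:5308828-5336783 on the plus strand.

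Il1a and Il1b are neighbours on chromosome 2, with 54597 bases between them, and Casp1 and Casp4 lie 1562 bases apart on chromosome 9. The bases upstream of these 4 genes and of Il1rn are shown because the members of both pairs are set against each other in the results. The sequences are those of RefSeq for GRCm38.p6, from 250 bases before the annotated transcription start to the base before it, 5′ to 3′ on the gene's strand. All 10 genes matched that table by symbol, with 14 starts in all. Il1rn has 3 annotated starts and Casp4 has 2, and the first of each is shown. Capitals mark matches to the motifs described after the sequences.
Il1b, chr2:129371140-129371389, minus strand: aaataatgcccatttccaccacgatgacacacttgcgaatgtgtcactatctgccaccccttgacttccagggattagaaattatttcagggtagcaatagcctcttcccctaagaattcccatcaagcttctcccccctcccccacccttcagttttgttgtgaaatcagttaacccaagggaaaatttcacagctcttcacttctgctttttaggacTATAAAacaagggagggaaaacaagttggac
Il1a, chr2:129309973-129310222, minus strand: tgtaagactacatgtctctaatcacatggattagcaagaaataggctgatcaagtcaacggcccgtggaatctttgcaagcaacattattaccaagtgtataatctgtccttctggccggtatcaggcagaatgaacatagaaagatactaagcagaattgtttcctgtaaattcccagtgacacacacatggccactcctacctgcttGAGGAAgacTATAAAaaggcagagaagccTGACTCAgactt
Il1rn, chr2:24336610-24336859, plus strand: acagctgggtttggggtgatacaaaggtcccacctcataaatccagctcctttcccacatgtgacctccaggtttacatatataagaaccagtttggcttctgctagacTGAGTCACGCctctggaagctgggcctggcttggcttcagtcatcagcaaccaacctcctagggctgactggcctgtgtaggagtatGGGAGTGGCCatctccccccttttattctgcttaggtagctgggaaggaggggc
Casp4, chr9:5308599-5308848, plus strand: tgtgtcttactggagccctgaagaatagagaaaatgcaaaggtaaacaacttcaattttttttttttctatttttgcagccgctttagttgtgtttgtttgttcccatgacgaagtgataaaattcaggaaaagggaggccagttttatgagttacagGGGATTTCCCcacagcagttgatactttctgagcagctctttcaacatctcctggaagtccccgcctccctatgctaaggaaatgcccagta
Casp1, chr9:5298267-5298516, plus strand: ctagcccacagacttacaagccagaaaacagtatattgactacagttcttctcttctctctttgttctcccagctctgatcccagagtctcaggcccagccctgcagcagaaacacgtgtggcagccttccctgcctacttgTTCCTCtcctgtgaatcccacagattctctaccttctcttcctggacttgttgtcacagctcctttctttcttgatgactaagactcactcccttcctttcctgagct

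Motifs were searched as fixed letters on both strands, N standing for any base. The TATA letters (TATAAA) stood 31 to 26 bases before the start of Il1b and 32 to 27 bases before that of Il1a. They were also in the window of Il18, and in 12.4% of all 32851 windows of the same length. Casp4 held an NF-kB motif (GGGA and CC with any 4 bases between them) from 92 to 83 bases before its first start, on both strands at the same bases. Il1rn, Il1rap and Nlrp3 held that motif as well. It was thus in 5 of the 14 windows, where the 2 windows of Casp4 share the same site, beside 17.6% of all windows. A PU.1 core (GAGGAA) was the only match of Casp1. Il1a and Nlrp3 held this core too, as did 23.3% of all windows. AP-1 letters (TGANTCA), present in 6.75% of all windows, were found for Il1a and Il1rn. In Il1rn they overlapped the core of the element that AHR binds (GCGTG). That core was in 3 of the 14 windows of these genes (in Il1rn, Il1r2 and Il1rap) and in 28.2% of all windows. Counted by gene, it was in 3 of the 10. Windows of the same gene can overlap and the counts are small, so no difference from the background was shown. The window of Il18bp held C/EBP letters (TTGCNNAA), as did 9.56% of all windows. Il1r2 held a STAT motif (TTC and GAA with any 3 bases between them), beside 7.02%. An ISRE, the interferon response element (GAAA, any 2 bases and GAAA again), was in 0 of the 14 windows and in 2.98% of all. A match is a run of letters, no evidence that a factor binds there.

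**Figure D1:**
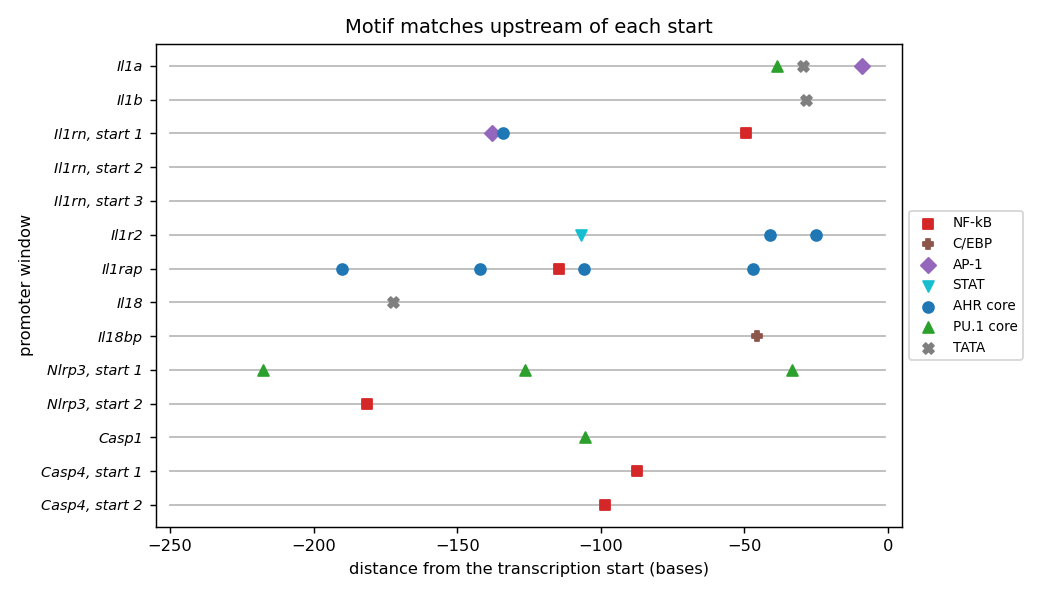
Position of motif matches in the 14 upstream windows of the 10 genes. The horizontal axis is the distance in bases from the annotated start, each grey line is a window of 250 bases, and each symbol is the centre of a match. TATA letters lie about 30 bases before the starts of Il1a and Il1b, and 2 of the 3 windows of Il1rn hold no match.

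The libraries held between 15535405 and 17557127 reads, and 13715 genes reached 10 reads in 1 library or more and were kept. Values are given as reads, as CPM (counts per 1e6 reads after TMM scaling) or, between genes, as RPKM (CPM per kilobase of the gene length listed in the table). All 6 macrophage markers were found in each library, with a summed level of 14243 to 18423 CPM in normal medium and 40521 to 43313 CPM in 4T1-CM. Most of each sum was Lyz2, at 11897 to 15196 CPM in normal medium and 32981 to 35597 CPM in 4T1-CM. No marker of B, T, mast, mesothelial, dendritic or epithelial tumour cells exceeded 1.37 CPM in any library. Neutrophils make much IL-1β. Their 9 markers summed to 67.6 CPM with DMSO and 74.7 CPM with CH223191 in normal medium, and to 242 and 181 CPM in 4T1-CM. Mmp8, S100a8 and Csf3r were higher in 4T1-CM and Cxcr2 lower, while Ly6g, S100a9 and Retnlg had 0 reads in each library. Within 4T1-CM, Mmp8 had 2142 reads with DMSO and 759 with CH223191, and S100a8 560 and 412. Csf3r went the other way, with 1521 and 1759 reads, and Cxcr2 had 2 and 0. The 6 fibroblast markers summed to 63.1 CPM with DMSO and 30.1 CPM with CH223191 in normal medium, and to 149 and 128 CPM in 4T1-CM. They thus differed between the inhibitor conditions as well as between the media. The part of these cells in the differences below was not tested. In these bulk cultures, fewer cells of a type and less RNA per cell cannot be told apart.

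To ask how 4T1-CM changed the IL-1 system, the ligands were compared first. Il1b, which encodes IL-1β, was nearly silent in normal medium, with 2 reads with DMSO and 8 with CH223191. Under 4T1-CM it reached 3162 reads (DMSO) and 2252 reads (CH223191). The libraries of the 2 media did not overlap. On the log2 scale Il1b was 10.18 higher in 4T1-CM with DMSO, with a 95% interval of 8.64 to 13.54, and 8.02 higher with CH223191 (7.13 to 9.32). These exact intervals (Clopper-Pearson) cover counting error alone, and the ratio with DMSO rests on the 2 reads in normal medium. Il1a, which encodes IL-1α, was already expressed in normal medium, with 260 and 231 reads. It had 2628 reads in 4T1-CM with DMSO and 2190 with CH223191, a level 9.19-fold higher with DMSO (8.10 to 10.5) and 9.26-fold higher with CH223191 (8.10 to 10.7). The 2 ligand genes thus reached like levels in 4T1-CM from very unlike starting points. Per length, Il1b stood at 0.00796 times the level of Il1a in normal medium with DMSO (0.000959 to 0.0291) and 0.0358 times with CH223191 (0.0153 to 0.0718). In 4T1-CM it stood at 1.25 times the level of Il1a with DMSO (1.18 to 1.31) and 1.06 times with CH223191 (1.003 to 1.13).

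**Figure D2:**
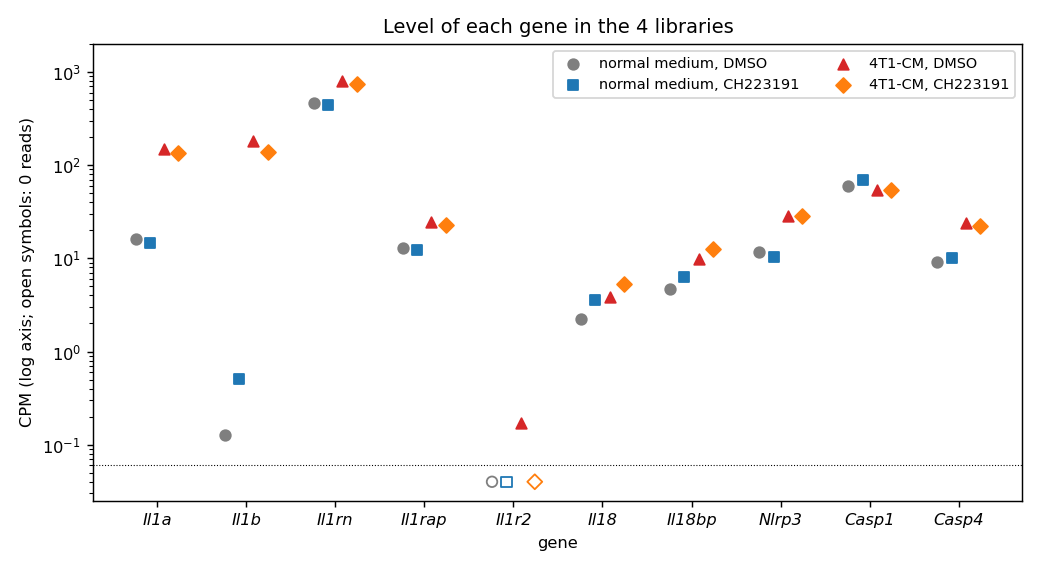
CPM of the 10 genes in the 4 libraries, on a log axis. Each symbol is 1 library and open symbols below the dotted line are libraries with 0 reads. Il1a and Il1b are higher in both libraries with 4T1-CM, Casp1 is at a similar level in all 4, and Il1r2 is at or near 0.

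The inhibitors of IL-1 were at the 2 ends of the range. Il1rn, which encodes the receptor antagonist, had the most reads of the 10 genes in each library, 7459 and 6981 in normal medium and 13939 and 12215 in 4T1-CM, with DMSO and CH223191 respectively. It was 1.70-fold higher in 4T1-CM with DMSO (1.65 to 1.75) and 1.71-fold higher with CH223191 (1.66 to 1.76). Il1rn was thus higher in 4T1-CM by less than either ligand gene. In normal medium its RPKM was 10.2 times the summed RPKM of Il1a and Il1b with DMSO and 10.4 times with CH223191. In 4T1-CM it was 0.842 times that sum with DMSO and 0.964 times with CH223191, so the ratio of antagonist to agonist transcripts was 12.0-fold lower with DMSO and 10.8-fold lower with CH223191. Counted in reads without the lengths, the ratio in normal medium was 28.5 with DMSO and 29.2 with CH223191. In 4T1-CM it was 2.41 and 2.75, which was 11.8-fold and 10.6-fold lower. The fall was thus similar, but whether Il1rn lay above or below the 2 ligand genes together in 4T1-CM depends on the lengths. The length listed for Il1rn (5535 bases) spans the exons of 6 annotated transcripts, which include intracellular and secreted forms, and the counts do not tell these apart. Il1r2, the decoy receptor, had 3 reads in 4T1-CM with DMSO and 0 in the other libraries. A count of 0 allows up to 0.185 to 0.189 CPM there, so a difference was not detectable at this depth. Il1rap, the accessory protein of the receptor, had 205 and 196 reads in normal medium and 425 and 366 in 4T1-CM. It was 1.89-fold higher in 4T1-CM with DMSO (1.59 to 2.24) and 1.83-fold higher with CH223191 (1.53 to 2.19).

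**Figure D3:**
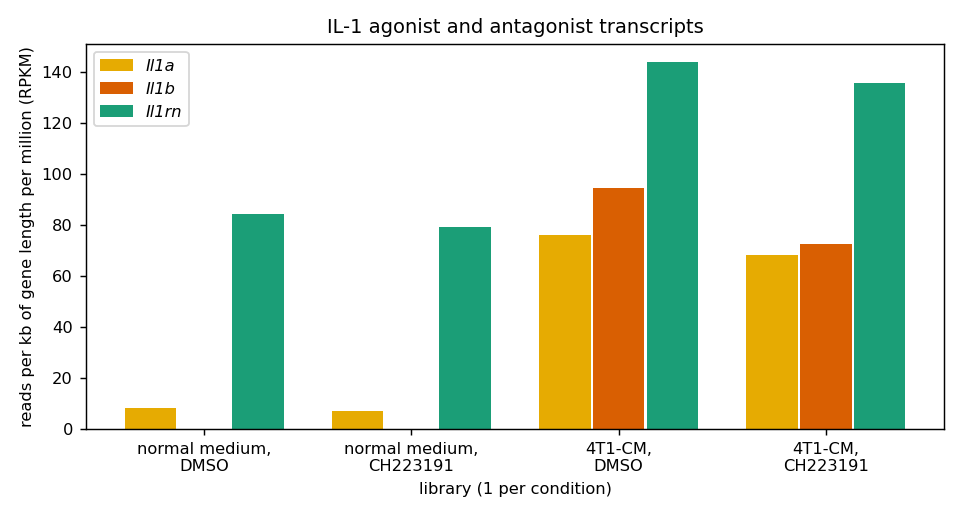
RPKM of Il1a, Il1b and Il1rn in the 4 libraries, 1 bar per gene and library. The heights depend on the gene lengths listed, and by reads Il1rn exceeds Il1a and Il1b together in each library. Il1rn stands far above both ligand genes in normal medium, where the bars of Il1b are too low to see, while in 4T1-CM the bars of Il1a and Il1b together are as high as that of Il1rn or higher.

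IL-18 and its binding protein were expressed at a low level. Il18 had 36 and 57 reads in normal medium and 67 and 87 in 4T1-CM, so that normal medium with CH223191 lay close to 4T1-CM with DMSO. Its log2 ratio was 0.75 with DMSO (0.16 to 1.39) and 0.58 with CH223191 (0.08 to 1.09). Il18bp had 74 and 101 reads in normal medium and 174 and 203 in 4T1-CM, without overlap of the media. It was 2.13-fold higher in 4T1-CM with DMSO (1.62 to 2.85) and 1.96-fold higher with CH223191 (1.54 to 2.52). The ratio of Il18bp to Il18 per length lay between 0.604 and 0.885 in the 4 libraries and its counting intervals overlapped between all of them, so no difference of this ratio was detectable.

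Among the inflammasome genes, the sensor and caspase-4 differed between the media while caspase-1 lay within 1.27-fold. Nlrp3 had 188 and 164 reads in normal medium and 496 and 462 in 4T1-CM. It was 2.40-fold higher in 4T1-CM with DMSO (2.03 to 2.86) and 2.75-fold higher with CH223191 (2.30 to 3.32). Casp4 had 144 and 160 reads in normal medium and 422 and 363 in 4T1-CM, which was 2.66-fold higher with DMSO (2.20 to 3.25) and 2.22-fold higher with CH223191 (1.84 to 2.69). Its neighbour Casp1 had 953 and 1093 reads in normal medium and 940 and 881 in 4T1-CM. Its log2 ratio was -0.15 with DMSO (-0.29 to -0.02) and -0.34 with CH223191 (-0.47 to -0.21). Per length, Casp1 stood at 16.4 times the level of Casp4 in normal medium with DMSO and 16.9 times with CH223191. In 4T1-CM it stood at 5.52 times (4.92 to 6.21) and 6.01 times (5.32 to 6.82). The length listed for Casp4 (3710 bases) covers 7 annotated transcripts and that for Casp1 (1497 bases) covers 1, so these levels depend on the lengths. The fall of the ratio with 4T1-CM, 2.97-fold with DMSO and 2.81-fold with CH223191, does not.

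By RPKM, which depends on the gene lengths listed, the order of the genes changed between the media. Il1rn, Casp1 and Il1a led in normal medium with DMSO, at 84.6, 40.0 and 8.27 RPKM. Nlrp3, Casp4, Il18, Il18bp and Il1rap followed between 2.91 and 1.13 RPKM, where the counting intervals of neighbours overlapped, and Il1b was at 0.0658 RPKM. In 4T1-CM with DMSO the order was Il1rn (144 RPKM), Il1b (94.8), Il1a (76.1), Casp1 (35.9), Nlrp3 (6.99), Casp4 (6.50), Il18 (3.71), Il18bp (3.29) and Il1rap (2.14). Nlrp3 and Casp4 overlapped in their counting intervals there, as did Il18 and Il18bp. With CH223191, the intervals of Il1b (72.7 RPKM) and Il1a (68.3) overlapped as well.

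Counted against the whole table, 5 of the 9 genes kept were at least 2-fold higher in 4T1-CM with DMSO (Il1a, Il1b, Il18bp, Nlrp3 and Casp4), beside 12.2% of all genes tested, and 0 were at least 2-fold lower, beside 6.11%. With CH223191, 4 were higher (the same genes without Il18bp), beside 12.0%, and 0 lower, beside 7.86%. These 4 were higher in both comparisons, which share no library, beside 8.19% of all genes, and 0 were lower in both, beside 3.38%. Il1b passed the minimum of 10 reads only through the libraries with 4T1-CM, and its place in these counts follows in part from that. The median log2 ratio of the 9 genes was 1.09 with DMSO and 0.97 with CH223191, while that of all genes tested was 0.01 and 0.02.

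A test was possible only by assuming that the effects of medium and inhibitor add, which leaves 1 residual degree of freedom over the 4 libraries and uses cultures that differ in inhibitor as if they were replicates. In this additive fit (edgeR, quasi-likelihood, two-sided, Benjamini-Hochberg adjustment over 13715 genes), 7 of the 9 genes rose with 4T1-CM at an adjusted p under 0.05, beside 16.4% of all genes, and 0 fell, beside 16.2%. Il1b is among the 7 in part because of the minimum, as above, and with at least 10 reads required of every library, which leaves Il1b out, 6 of 8 rose. The log2 changes were 8.95 for Il1b (adjusted p = 9.91e-09), 3.21 for Il1a (5.46e-08), 1.36 for Nlrp3 (9.57e-05), 1.28 for Casp4 (0.000212) and 1.03 for Il18bp (0.00221). Il1rap rose by 0.89 (adjusted p = 0.00148 with edgeR) and Il1rn by 0.77 (0.000794). Il18, at 0.66, missed the threshold (edgeR adjusted p = 0.0732), as did Casp1, at -0.25 (0.153).

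**Figure D4:**
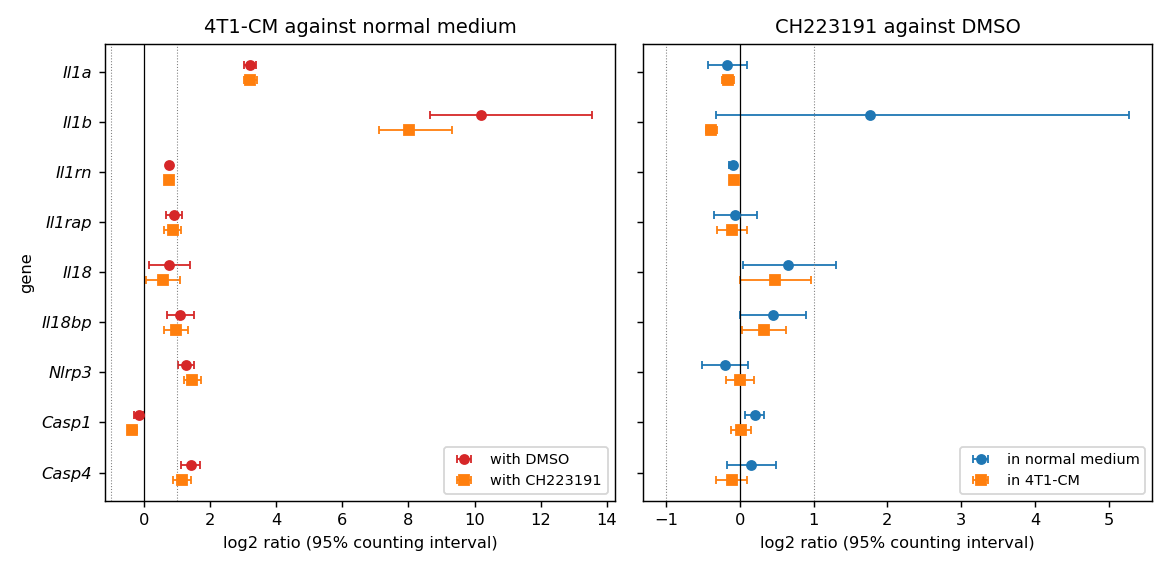
Log2 ratios of the 9 genes kept, for 4T1-CM against normal medium (left) and CH223191 against DMSO (right). Points are ratios of 2 libraries, bars are 95% intervals of counting error alone, and dotted lines mark 2-fold. With 4T1-CM all points but those of Casp1 lie above 0, and with CH223191 all lie within 2-fold except Il1b in normal medium, which rests on 2 and 8 reads.

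CH223191 was compared with DMSO within each medium to see whether blocking AHR altered these transcripts. In 4T1-CM, 0 of the 9 genes passed 2-fold upwards and 0 downwards, beside 2.75% and 2.66% of all genes. Il1b stood 0.38 lower with CH223191 there on the log2 scale (ratio -0.38, interval -0.46 to -0.30), from 3162 to 2252 reads, and Il1a 0.16 lower (-0.16, -0.24 to -0.07). The log2 ratio of Il1rn was -0.08 (-0.12 to -0.05). These intervals exclude 0 by counting error alone, and whether 2 cultures treated alike would differ as much is unknown. The neutrophil markers Mmp8 and S100a8 were also lower with CH223191 in 4T1-CM and Csf3r higher, and the part of neutrophils was not tested. Il18 and Il18bp had positive log2 ratios, 0.48 (0.01 to 0.97) and 0.33 (0.03 to 0.63), and for Nlrp3, Casp1, Casp4 and Il1rap the interval held 0. In normal medium, 1 gene was at least 2-fold higher with CH223191, beside 4.84% of all genes, and 0 lower, beside 3.31%. The gene was Il1b, with 2 and 8 reads, and its interval held 0 (log2 ratio 1.77, -0.32 to 5.28). Il18 had a log2 ratio of 0.66 there (0.04 to 1.31), Il18bp 0.45 (0.01 to 0.90), Casp1 0.20 (0.07 to 0.33) and Il1rn -0.09 (-0.14 to -0.04). Il18 and Il18bp had a positive ratio in both media. At 2-fold, 0 of the 9 genes were higher in both media, beside 0.649% of all genes, and 0 lower in both, beside 0.481%. In the additive fit with edgeR, 0 of the 9 genes passed in either direction for CH223191, beside 0.0729% of all genes higher and 0.00729% lower. At an unadjusted p under 0.05 it was also 0 of the 9, against 879 of 13715 genes, and DESeq2 called 0. The lowest adjusted p was that of Il18 (0.777 with edgeR, log2 change 0.56).

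The other genes of the pathway were taken from lists. Of 14 other ligands, receptors and binding proteins, 5 had enough reads, of which 4 rose and 1 fell with 4T1-CM in the additive fit, beside 16.4% and 16.2% of all genes. One of the 4, Il33, passed the minimum of 10 reads only through the libraries with 4T1-CM. Their median log2 ratio, with genes at 0 set to the floor of 3 reads, was 1.29 with DMSO and 1.13 with CH223191. Il33, the alarmin of the family, had 0 reads in both libraries of normal medium and 17 and 18 in 4T1-CM, which was at least 5.16-fold higher with DMSO and at least 5.87-fold with CH223191, against a floor of 3 reads per library. Of the fibroblast markers, Col1a1, Col1a2, Col3a1 and Dcn rose as well, while Pdgfra did not pass (edgeR adjusted p = 0.842) and Lum had at most 3 reads, and their part in the level of Il33 was not tested. Its receptor Il1rl1 (ST2) went the other way, with 51 and 40 reads in normal medium and 5 and 3 in 4T1-CM (additive fit, edgeR adjusted p = 0.000360). Il1r1, the signalling IL-1 receptor, had 48 and 38 reads in normal medium and 103 and 134 in 4T1-CM (0.00303). Il1rl2, the IL-36 receptor, had 179 and 185 reads and then 482 and 367 (0.000480), and its ligand Il1f9, or IL-36γ, 13 and 19 and then 45 and 43 (0.0189). Il18r1, which carries the IL-18 signal, had 0 reads in each library.

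Of 21 other inflammasome genes, 18 had enough reads, of which 6 rose and 3 fell in the additive fit (edgeR), beside 16.4% of all genes higher and 16.2% lower, so the share that fell was near the background. The median log2 ratio was 0.05 with DMSO and 0.15 with CH223191. Mefv, which encodes the sensor pyrin, had 8 and 10 reads in normal medium and 386 and 399 in 4T1-CM, a log2 ratio of 5.38 (4.46 to 6.68) with DMSO and 5.22 (4.39 to 6.36) with CH223191. The sensor Nlrc4 and 3 of the 4 listed genes of the NAIP receptors, which pass bacterial flagellin and needle proteins on to it, also rose. Nlrc4 had log2 ratios of 1.26 and 1.09, Naip2 of 1.48 and 1.29, Naip1 of 1.11 and 1.20, and Naip5 of 0.93 and 0.84. Naip6, with log2 ratios of 0.09 (-0.15 to 0.33) and 0.38, did not pass (edgeR adjusted p = 0.299). Between 19.1% and 36.9% of the 50-base words of the 4 Naip genes listed also occur in transcripts of other genes, so their reads may be split among copies. P2rx7, the ATP-gated channel upstream of NLRP3, had log2 ratios of 0.64 and 0.70. Nlrp10 (-1.91 and -1.17), Panx1 (-0.55 and -0.42) and Gsdmd, the pore protein of pyroptosis (-0.33 and -0.50), fell. The adaptor Pycard (0.36 and -0.20), the DNA sensor Aim2 (-0.03 and 0.16) and Nek7, a partner of NLRP3 (-0.25 and 0.43), did not pass.

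**Figure D5:**
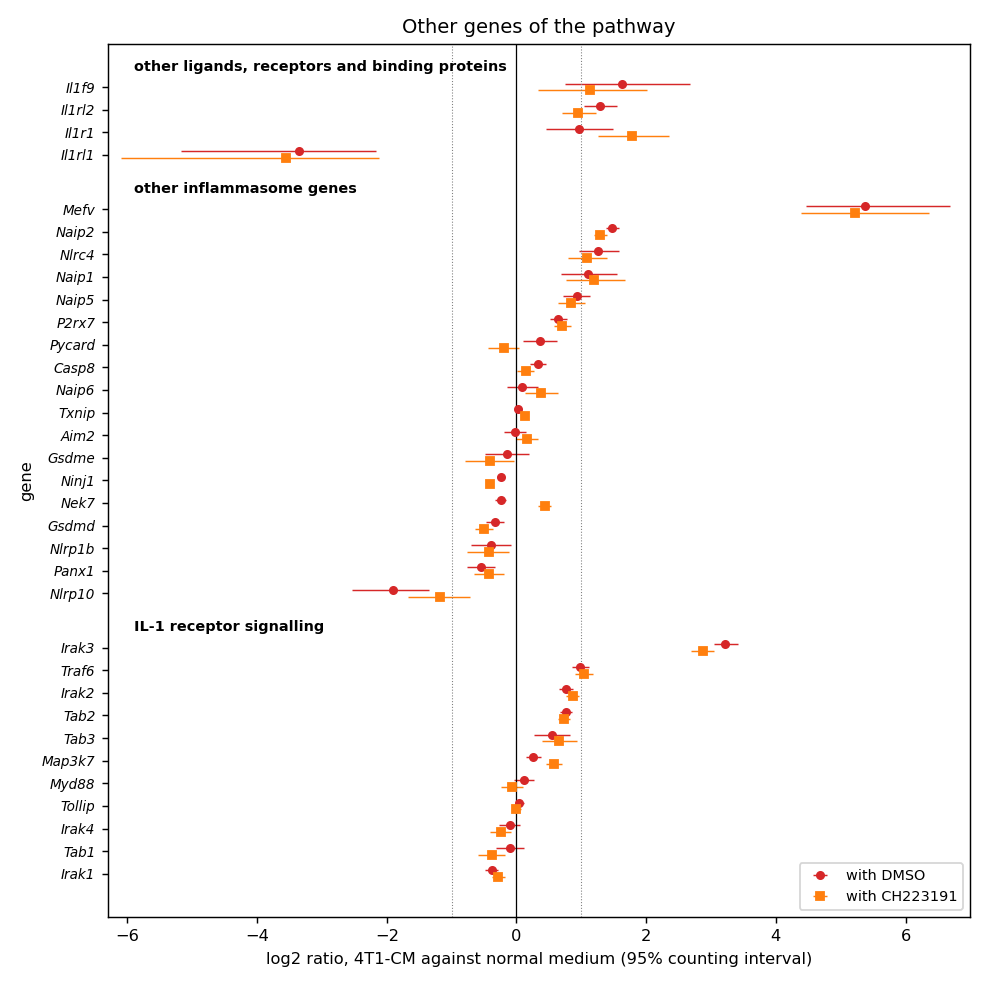
Log2 ratios of 4T1-CM against normal medium for the other genes of the pathway with enough reads, with DMSO (circles) and CH223191 (squares) and 95% counting intervals. Dotted lines mark 2-fold, and Il33 is left out because it had 0 reads in normal medium. Mefv, Irak3 and Il1rl1 lie farthest from 0.

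All 11 genes of IL-1 receptor signalling had enough reads, and 6 rose and 0 fell (additive fit, edgeR), beside 16.4% and 16.2% of all genes. The median log2 ratio was 0.26 with DMSO and 0.57 with CH223191. Irak3, which encodes the inhibitory kinase-like protein IRAK-M, had 265 and 290 reads in normal medium and 2716 and 2167 in 4T1-CM, a log2 ratio of 3.22 (3.04 to 3.41) and 2.87 (2.69 to 3.05). The ubiquitin ligase Traf6 (0.98 and 1.04), the kinase Irak2 (0.77 and 0.86) and Tab2, an adaptor of the kinase TAK1 (0.76 and 0.73), also rose. The adaptor Myd88 (0.12 and -0.07) and the kinases Irak4 (-0.10 and -0.24) and Irak1 (-0.38 and -0.28) did not pass.

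Of 14 genes that IL-1 and other activators of NF-kB induce, 13 had enough reads and 12 rose (additive fit, edgeR), beside 16.4% of all genes, where Il6 and Cxcl1 passed the minimum only through the libraries with 4T1-CM. The list had a median log2 ratio of 2.85 with DMSO and 2.69 with CH223191. With Il6, which had 0 reads in normal medium, set to the floor of 3 reads there, these medians were 2.66 and 2.61. Saa3, an acute-phase protein, had the highest ratio with DMSO, with 209 and 376 reads in normal medium and 13725 and 13223 in 4T1-CM. Cxcl1, a neutrophil attractant, had 4 and 8 reads and then 278 and 208. At the low end, Tnfaip3, a brake on NF-kB, had log2 ratios of 0.54 and 0.60, and Ccl2 of 0.33 and -0.48, without passing. Of the 10 interferon-induced genes around the inflammasome, 8 rose, beside 16.4% of all genes, with medians of 1.26 and 0.99 beside 0.01 and 0.02 for all genes. Gbp5 among them passed the minimum only through the libraries with 4T1-CM. Zbp1, a nucleic acid sensor, had log2 ratios of 3.45 and 2.23 and Gbp5, a guanylate-binding protein that aids NLRP3 assembly, of 2.997 and 2.39, while the transcription factors Irf1 (0.01 and -0.04) and Irf8 (0.03 and 0.12) did not pass. Between the 2 libraries with 4T1-CM, CH223191 against DMSO, these 10 genes had a median of -0.32 and the NF-kB list one of -0.10. The median of all genes was 0.004. In normal medium the 2 lists had medians of -0.02 and 0.07, beside 0.003 for all genes. Of either list, 0 genes passed for CH223191 in the additive fit (edgeR), and each condition has 1 library.

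The genes most like each member were sought by the Euclidean distance of their centred log2 CPM over the 4 libraries, among genes whose mean reached 10 CPM (8323 for most members). For Il1b they were Acod1, Inhba and Hp, at distances of 0.77, 0.96 and 1.26. For Il1a they were Traf1, Ppp1r12b and Irak3, at 0.10, 0.13 and 0.27. Emilin2, Ccng2 and Itgb7 lay nearest to Nlrp3, and Narf, Parp8 and Slfn4 to Casp4. Slc9a4, Eno1b and Slc11a2 lay nearest to Il1rn, and Kank2, Rapgef2 and Tnfrsf1b to Il1rap. The nearest to Il18 were Pltp, Adap2 and Arntl, to Il18bp Prpf40b, Csf2rb2 and Samsn1, and to Casp1 Cd22, Elovl5 and Nmt1. With 4 libraries, many genes share a pattern, and a small distance says no more than that.

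Reads of the 10 genes were little open to confusion with other genes. Il1b, Casp1, Nlrp3, Il18 and Il1r2 share 0 of their 50-base words with transcripts of other genes, and Il1a shares 9.14%, with Gm14023, a transcript on the opposite strand that had at most 13 reads. Il1rap shares 3.98% with an antisense gene that had 0 reads. Il18bp overlaps the end of Numa1, on the other strand, by 80 bases (0.968% of its words), and Numa1 had 2024 to 2345 reads. Whether the counting used the strand is not given in the sources used here.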

How the data were processed

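RNA was extracted with TRIzol and libraries were made with the NEBNext Ultra kit, per the labels. The authors deposited raw read counts per gene for 54532 genes, without normalization. HISAT2 2.0.5 and DESeq2 are named in the submitters' processing notes. The study's methods name featureCounts as the counter for its alveolar macrophage libraries. The counter and genome build of the present libraries are not given in the sources used here, but the coordinates of all 10 genes equal those of GENCODE M21 (GRCm38). Genes reaching 10 reads in 1 or more of the 4 libraries (13715) were kept, scaled by TMM in edgeR 4.0.16 (R 4.3.3), and log2 ratios were taken with a prior count of 0.5. A gene was called at 2-fold. With 1 library per condition, pairs of libraries were not tested, and 95% Clopper-Pearson intervals cover counting error only. Il1b, with 2 reads in 1 library, is given with that interval, although genes with 3 reads or fewer were to get no fold. The additive quasi-likelihood fit used medium and inhibitor as terms. The alternatives were DESeq2 1.42.0 (size factors and Wald test), total counts, other filters, a prior count of 5 and protein-coding genes alone. The steps were tested on simulated data. The genes, lists and motifs were chosen with earlier results of these data known. Named genes were the 10 members, the genes of 3 pathway lists, the 2 highest and 2 lowest of the 2 lists of induced genes, and the 3 genes most like each member. Names of the IL-36 genes were matched through RefSeq synonyms. Of single genes outside these rules, the markers were named after their values were seen.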

Additional observations from a re-analysis of the deposited data

How the results depend on the processing

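Each condition has 1 library, so depth limits the genes with few reads (Il1r2, and Il1b in normal medium) and the spread between cultures limits all others. No paired analysis was possible because each condition has a single library and the labels give no replicate numbers, and leaving a library out of the additive fit leaves no residual degree of freedom. Of the recomputed counts of members, 69 stayed within 1.5 times the value reported and 3 did not. The only member at least 2-fold higher with CH223191 in normal medium, Il1b, was no longer counted with at least 10 reads in every library (0 members), by construction, nor with a prior count of 5 (0 members). Without a filter, 1 member was at least 2-fold lower with CH223191 in 4T1-CM, Il1r2, which had 3 reads and 0. For CH223191 in the additive fit, Il1b turned from -0.28 to 0.52 with the Wald test of DESeq2, and Casp4 from 0.0087 to -0.022 with total counts. Neither was called, and the cause was not tested. With 4T1-CM, the number of members called in the additive fit stayed within 1.5 times under every alternative run. The size of the adjusted p-values depended on the settings. For Il1b with edgeR it was 3.6e-06 with protein-coding genes alone and 1.1e-271 without a filter. For Il18bp it was 0.0301 with the Wald test of DESeq2. With at least 10 reads in every library, 7.25% of all genes were at least 2-fold higher with 4T1-CM under DMSO and 7.38% under CH223191. Without a filter these shares were 21.1% and 19.9%.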

Other observations

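The inflammasome genes Pycard and Nek7 and the marker Cd68 differed more with CH223191 in normal medium than in 4T1-CM. They were named after their values were seen, and all stayed within 2-fold. In normal medium Pycard went from 203 (DMSO) to 301 reads (CH223191), a log2 ratio of 0.57 (0.31 to 0.84), beside 0.01 (-0.23 to 0.26) in 4T1-CM. Nek7 had 2136 and 1412 reads in normal medium, a log2 ratio of -0.59 (-0.69 to -0.50), beside 0.08 (-0.01 to 0.18) in 4T1-CM. The macrophage marker Cd68 had 18266 and 32676 reads in normal medium, a log2 ratio of 0.84 (0.82 to 0.87), beside 0.07 (0.05 to 0.09). The difference between the media was not tested, and 1 library decides each of these values.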
